A study of Homo sapiens with 16 samples.

Results

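The genes encoding enzymes of central carbon metabolism were examined in H1299 cells with and without YEATS2 knockdown (KD). The set holds 45 gene symbols of glycolysis, the pentose phosphate pathway, the pyruvate dehydrogenase step and the tricarboxylic acid (TCA) cycle, chosen by name. Of these, 44 were among the 12676 genes of the count table, and ALDOC, which encodes an aldolase isozyme, was not found there by symbol or identifier. H1299 is a human non-small cell lung carcinoma line, and YEATS2 is a scaffolding subunit of the ATAC histone acetyltransferase complex. RNA-seq was carried out on 2 control libraries (shCtrl), from cells carrying the non-targeting pLKO-shNT vector, and on 2 KD libraries (shYEATS2), from cells carrying a pLKO hairpin against YEATS2. Both groups were infected with lentivirus in 8 µg/ml polybrene, received puromycin at 2 µg/ml after 48 h and were kept under selection for 4 to 7 days according to the labels, while the study's methods give a shorter time. The KD group rests on 1 hairpin in 1 cell line, so effects of the hairpin other than loss of YEATS2 cannot be told apart from it.

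Glycolysis splits glucose into pyruvate in the cytosol, and lactate dehydrogenase turns pyruvate into lactate. The pentose phosphate pathway branches off near the top of glycolysis and yields ribose and NADPH, while the pyruvate dehydrogenase complex carries pyruvate into the mitochondrial TCA cycle. Lung cancer lines in culture are known to take up much glucose and to release lactate. Many glycolytic genes are known targets of the hypoxia-inducible factors and of MYC. Their binding sites include the letters ACGTG and CACGTG, in that order, but are not limited to them.

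The knockdown was present in the libraries labelled as such. Scaled read counts of YEATS2 (ENSG00000163872, chr3:183415585-183530412 (+ strand) in GRCh37) were 4482 and 4104 in the control libraries and 665 and 673 in the KD libraries (log2 fold change -2.68 ± 0.10 (SE), adjusted p = 0.000583). Here and below, a scaled count is the read count adjusted by TMM, edgeR's scaling that sets the bulk of genes equal between libraries. The adjusted p is the Benjamini-Hochberg value of edgeR's quasi-likelihood test over all 12676 genes, and a gene was called at an adjusted p under 0.01. Calls are those of this test unless another is named. The libraries held 34718921 to 39417787 counted reads, and a member held between 56 and 302651 reads in a library. Of 4 epithelial markers, KRT8, KRT18 and KRT7 were listed, as was the mesenchymal marker VIM, whereas the 5 fibroblast, 4 endothelial and 5 leukocyte markers looked for were not among the listed genes, all of which reached at least 101 reads in some library. The log2 fold changes of the listed markers were 0.31 for KRT8, -0.81 for KRT18, 1.55 for KRT7 and -0.37 for VIM, of which KRT7 was called (adjusted p = 0.00349). Their part in the results was not tested.

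Of the 44 enzyme genes tested, 8 were called lower in KD cells and 2 higher, and 34 did not pass the test. The share called lower was 18.2% of members, beside 12.5% of all genes. The share called higher was 4.55%, beside 12.9% of all genes. In 24 members both KD libraries lay below both control libraries (54.5%, beside 39.8% of all genes), and in 6 members both lay above (13.6%, beside 39.7%). The members had a median log2 fold change of -0.21, beside -0.00 for all genes, and 33 of the 44 members had a negative value (25 with total counts as library sizes).

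These counts depended on how the libraries were scaled. With total counts as library sizes, the median over all genes moved by 0.12 on the log2 scale, to 0.12, and that of the members to -0.09, so that the members stood 0.20 below all genes on either scale. The calls were then 5 lower, beside 9.2% of all genes, and 3 higher, beside 18.6%. Of all calls, 50.8% were higher under TMM and 67.0% under total counts. In bulk RNA, less RNA of a gene per cell and fewer cells that express it cannot be told apart.

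**Figure D1:**
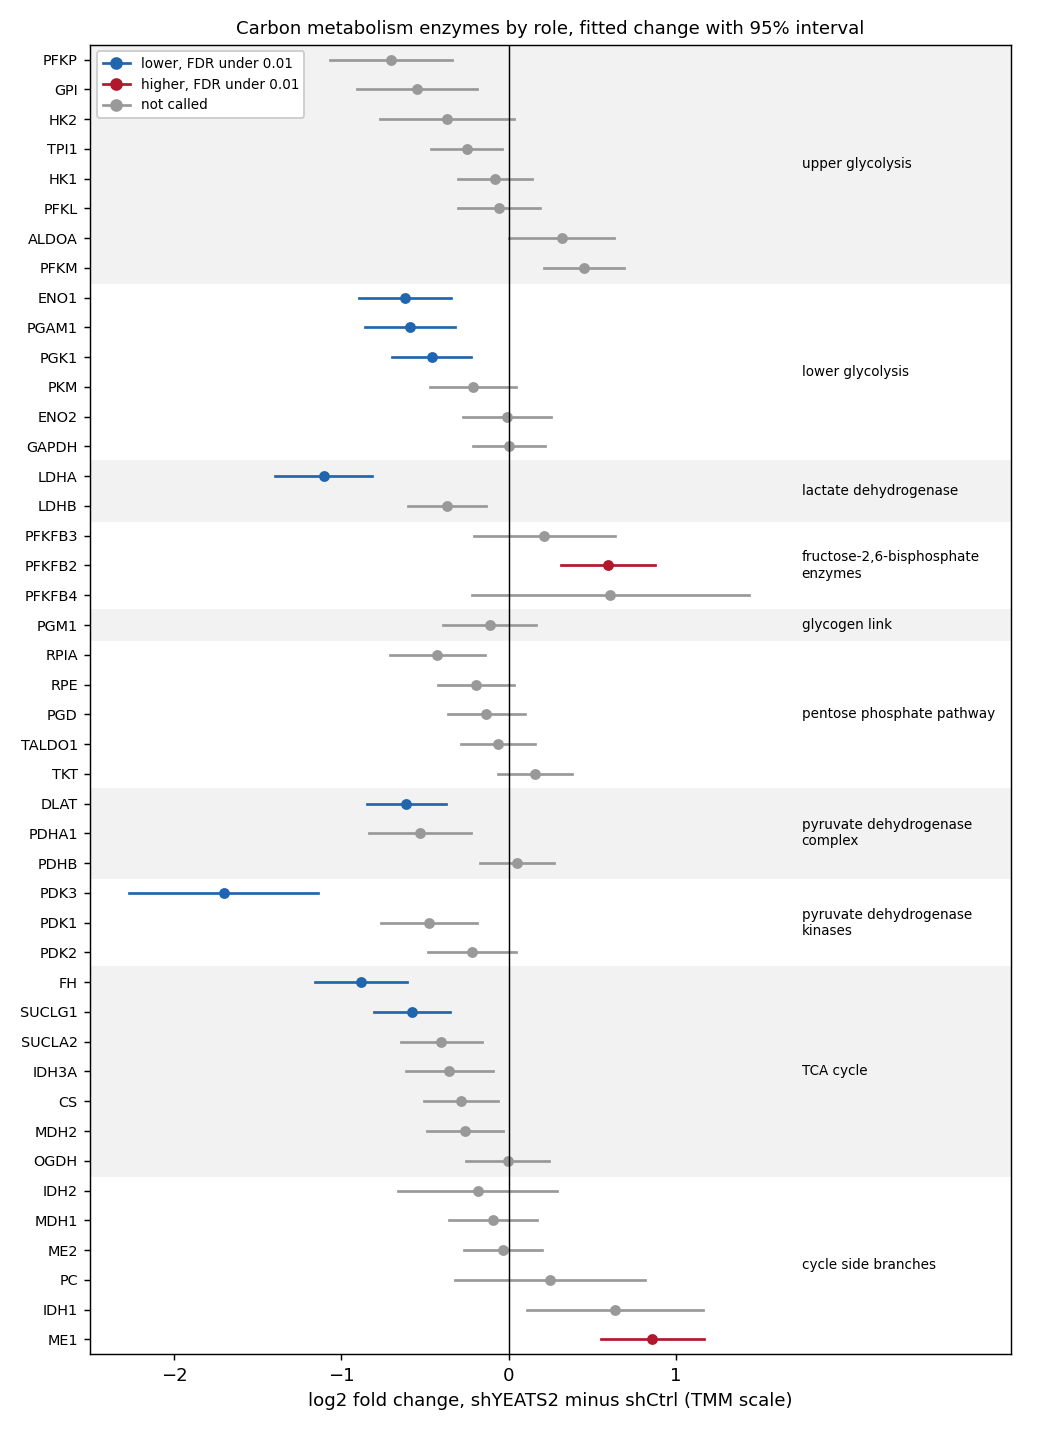
Fitted log2 fold change (shYEATS2 minus shCtrl, horizontal axis) of the 44 enzyme genes, grouped by role, with lines for the 95% interval from the quasi-likelihood fit (2 libraries a group). Blue points are the 8 genes called lower, red the 2 called higher and grey the 34 not called. PDK3 (-1.70), LDHA (-1.11) and FH (-0.88) lie furthest to the left, and ME1 (0.86) furthest to the right.

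In the upper steps of glycolysis, none of the 8 genes tested was called by the quasi-likelihood test, although 3 were lower and 2 higher at an unadjusted p under 0.05. DESeq2 and edgeR's exactTest each called 2 lower (PFKP and GPI) and 1 higher (PFKM). A fit with the replicate number as a block, a pairing that the labels do not state, called HK2, GPI and PFKP lower. It called PFKM and ALDOA higher. The values of the phosphofructokinase genes, whose enzyme commits sugar to glycolysis, lay in different directions. PFKP, the platelet-type subunit, gave scaled counts of 7799 and 7047 in the control libraries and 5236 and 3867 in the KD libraries (log2 fold change -0.71, -1.07 to -0.34 (95% interval), adjusted p = 0.0103). PFKM, the muscle-type subunit, gave 4176 and 4389 in the control libraries and 5510.3 and 6191 in the KD libraries (log2 fold change 0.45, 0.21 to 0.69 (95% interval), adjusted p = 0.0115). PFKL, the liver-type subunit, gave 4227 and 4409 in the control libraries and 4428 and 3872 in the KD libraries (log2 fold change -0.06, -0.30 to 0.19 (95% interval), adjusted p = 0.668). Thus PFKP and PFKM did not overlap between the groups, in opposite directions, and stood just outside the threshold, whereas the PFKL libraries overlapped.

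Whether PFKP and PFKM were called turned on the test, the scaling and 1 library. Of the 10 other fits that kept all 4 libraries, 7 called PFKP lower and 5 called PFKM higher. Without shYEATS2 replicate 1, the adjusted p was 0.00106 for PFKP and 0.00513 for PFKM. With total counts as library sizes PFKM was also called (adjusted p = 0.00483). In reads, the ratio of PFKM to PFKP was 0.535 and 0.623 in the control libraries and 1.05 and 1.60 in the KD libraries. That of PFKL to PFKP was 0.542 and 0.626 in the control libraries and 0.846 and 1.00 in the KD libraries. PFKP thus held more reads than PFKM in both control libraries and fewer in both KD libraries.

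The hexokinases, which trap glucose in the cell as its phosphate, were not called by the quasi-likelihood test. The fit with the replicate number as a block called HK2 lower (adjusted p = 0.00618). HK1 gave scaled counts of 1906 and 2013 in the control libraries and 1822 and 1876 in the KD libraries (log2 fold change -0.08, -0.30 to 0.14 (95% interval), adjusted p = 0.477). HK2, the inducible form of many tumours, gave 3054 and 2365 in the control libraries and 2369 and 1825 in the KD libraries (log2 fold change -0.37, -0.77 to 0.03 (95% interval), adjusted p = 0.109), and its libraries overlapped. GPI, which makes fructose 6-phosphate, had a log2 fold change of -0.55 (adjusted p = 0.0233, or 0.00124 without shYEATS2 replicate 1). The fold changes of the triose-producing enzymes were 0.32 for the aldolase ALDOA and -0.25 for the isomerase TPI1. Of these genes, both KD libraries lay below both controls for HK1, GPI and TPI1 and above them for ALDOA, although HK1 turned to a log2 fold change of 0.04 with total counts as library sizes.

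In the lower steps of glycolysis, 3 of 6 genes fell (50%, beside 12.5% of all genes). By the quasi-likelihood test, DESeq2, exactTest or an unadjusted p under 0.05, 0 rose. ENO1, the main enolase, had scaled counts of 128142 and 134526 in the control libraries and 93530.0 and 77645 in the KD libraries (log2 fold change -0.62 ± 0.12 (SE), adjusted p = 0.00619). PGAM1, the phosphoglycerate mutase, had 18802 and 18633 in the control libraries and 13548 and 11334 in the KD libraries (log2 fold change -0.59 ± 0.11 (SE), adjusted p = 0.00677). PGK1, the phosphoglycerate kinase that makes ATP, had 31257 and 34955 in the control libraries and 24139 and 23954 in the KD libraries (log2 fold change -0.46 ± 0.10 (SE), adjusted p = 0.00989). These are levels of 0.652, 0.665 and 0.726 times the control, for 3 enzymes that act in a row between GAPDH and PKM.

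The other 3 genes of this stretch were not called. PKM, pyruvate kinase, gave 95809.9 and 87923 in the control libraries and 84613 and 73612 in the KD libraries (log2 fold change -0.22, -0.47 to 0.04 (95% interval), adjusted p = 0.139). GAPDH, the dehydrogenase that feeds PGK1, had a log2 fold change of 0.00 and ENO2, the neuronal enolase, of -0.01, with overlapping libraries for both. GAPDH held 0.669% and 0.727% in the control libraries and 0.751% and 0.768% in the KD libraries of all counted reads. The ENO2 to ENO1 read ratio was 0.00898 and 0.00968 in the control libraries and 0.0126 and 0.0161 in the KD libraries.

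The 3 falls in lower glycolysis were close to the threshold. With total counts as library sizes the adjusted p was 0.0129 for ENO1, 0.0131 for PGAM1 and 0.0302 for PGK1. Without shCtrl replicate 1 it was 0.0184, 0.0282 and 0.0279, and without shCtrl replicate 2 it was 0.0306, 0.0257 and 0.0976. Without shYEATS2 replicate 2 it was 0.0131 for PGAM1 and 0.0208 for PGK1, and without shYEATS2 replicate 1 it was 0.0130 for PGK1.

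LDHA, the lactate dehydrogenase subunit that favours lactate production, had the largest fall of any member but PDK3. LDHA (ENSG00000134333, chr11:18416107-18429972 (+ strand) in GRCh37) had scaled counts of 29508 and 33037 in the control libraries and 15788 and 13260.0 in the KD libraries (log2 fold change -1.11 ± 0.12 (SE), adjusted p = 0.00135). The KD cells thus held 0.464 times the control level. LDHB, the subunit of heart muscle, had 48011 and 51769 in the control libraries and 40095 and 37102 in the KD libraries (log2 fold change -0.37, -0.60 to -0.14 (95% interval), adjusted p = 0.0206), with both KD libraries below both controls. It was not called by the quasi-likelihood test but was called lower by DESeq2 (adjusted p = 0.00532) and exactTest (0.00824). Reads of LDHB per read of LDHA were 1.63 and 1.57 in the control libraries and 2.54 and 2.80 in the KD libraries, so that the libraries of the groups did not overlap. The LDHA call was kept under all 14 other fits. Its log2 fold change lay between -1.24 and -0.98 when any library was left out.

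The promoter windows of LDHA and PGK1 are shown because both genes fell and because both carry several copies of the ACGTG letters. The windows are from RefSeq on GRCh38.p14 and run from 250 bases before to 50 bases after an annotated start, printed 5′ to 3′ in the direction of the gene, with matches to ACGTG on either strand in capitals.
LDHA, chr11:18394313-18394612, + strand: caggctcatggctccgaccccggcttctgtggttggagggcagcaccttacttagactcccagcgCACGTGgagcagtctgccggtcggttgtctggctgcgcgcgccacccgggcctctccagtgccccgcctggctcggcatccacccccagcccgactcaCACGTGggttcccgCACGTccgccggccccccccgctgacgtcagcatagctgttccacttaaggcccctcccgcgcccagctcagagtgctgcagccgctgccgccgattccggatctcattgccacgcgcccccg
PGK1, chrX:78103998-78104297, + strand: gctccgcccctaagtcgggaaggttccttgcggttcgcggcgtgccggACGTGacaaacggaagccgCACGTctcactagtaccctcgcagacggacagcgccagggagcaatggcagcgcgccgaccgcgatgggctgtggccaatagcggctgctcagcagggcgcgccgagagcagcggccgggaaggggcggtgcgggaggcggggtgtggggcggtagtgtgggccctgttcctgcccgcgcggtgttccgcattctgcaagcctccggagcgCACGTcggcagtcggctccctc
The LDHA window held 5 matches to ACGTG, of which 4 belong to 2 copies of the palindrome CACGTG (which is read on both strands), and the PGK1 window held 3 and no CACGTG. A second annotated LDHA start had none of them. Among genes not called, a window of HK2 held 4 matches, with 2 copies of CACGTG, and that of PDHB held 3 matches. ACGTG was found in 21.4% of 35116 promoter windows and in 34.2% of the 73 windows of members. Counted by gene, it was in a window of 4 of the 8 genes called lower (LDHA, PGK1, PDK3 and DLAT) and of 16 of 33 uncalled genes with a window. ENO1, PGAM1, FH and SUCLG1, which also fell, had no match to ACGTG in the windows searched, which may not cover every start of a gene. Other forms of the hypoxia site were not searched, so a window without ACGTG may still hold one. A match is a run of letters only, and binding was not analysed here.

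**Figure D2:**
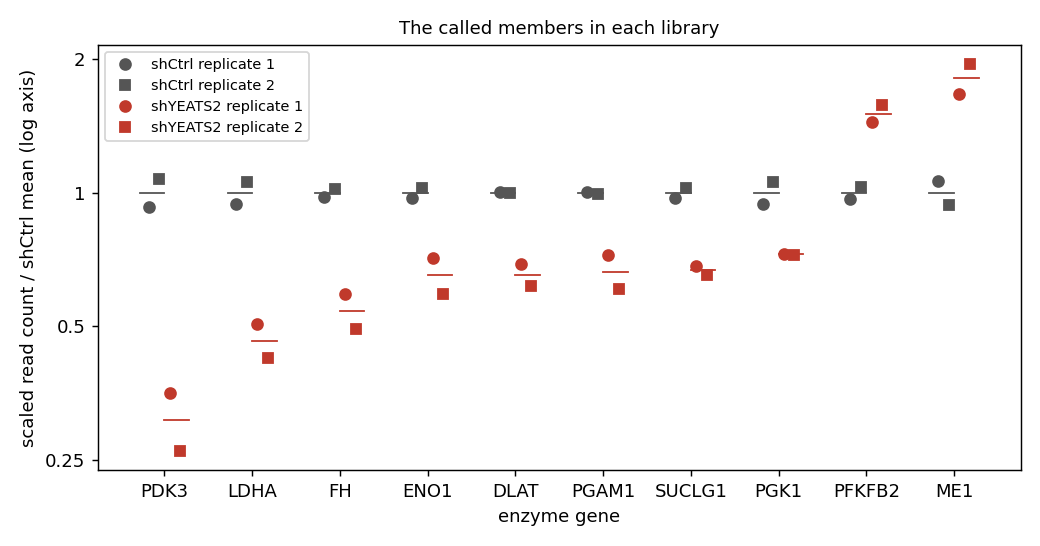
Scaled read count of each of the 10 called genes in the 4 libraries, divided by the mean of the control libraries (log axis). Grey symbols are shCtrl and red symbols shYEATS2, circles replicate 1 and squares replicate 2, and short lines are group means. KD replicate 2 lies further from the controls than KD replicate 1 for all 10 genes.

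The 2 KD libraries did not move by the same amount. KD replicate 2 lay further from the control mean than KD replicate 1 in all 10 called members, and in 85.1% of all called genes. YEATS2 itself differed little between these libraries, at 665 and 673 scaled counts. The part of this difference in the results was not tested.

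Of the enzymes that make and break fructose 2,6-bisphosphate, the activator of phosphofructokinase, PFKFB2 rose. Its scaled counts were 487 and 519 in the control libraries and 725 and 792 in the KD libraries (log2 fold change 0.59 ± 0.12 (SE), adjusted p = 0.00759), a level 1.51 times the control. The adjusted p was 0.0562 without shCtrl replicate 1, 0.0294 without shCtrl replicate 2 and 0.0244 without shYEATS2 replicate 2. The hypoxia-inducible isozymes PFKFB3 (log2 fold change 0.21) and PFKFB4 (0.61) were not called by the quasi-likelihood test, and the libraries overlapped for both. PFKFB4 ranged from 145 to 265 within the controls alone. Its KD libraries gave 227 and 396, each above the control library of the same replicate number. With that number as a block, a pairing that the labels do not state, PFKFB4 was called higher (adjusted p = 0.00581). PGM1, which links glycolysis to glycogen, gave 1186 and 1094 in the control libraries and 977 and 1128 in the KD libraries (log2 fold change -0.11, -0.39 to 0.17 (95% interval), adjusted p = 0.445).

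None of the 5 pentose phosphate genes was called by the quasi-likelihood test or DESeq2. RPIA, the ribose 5-phosphate isomerase, was the 1 gene with an unadjusted p under 0.05 and was called lower by exactTest. Its scaled counts were 1764 and 1523 in the control libraries and 1301 and 1145 in the KD libraries (log2 fold change -0.43, -0.71 to -0.14 (95% interval), adjusted p = 0.0253). The log2 fold changes were -0.13 for PGD, the second NADPH-producing step, -0.19 for the epimerase RPE, -0.07 for transaldolase TALDO1 and 0.16 for transketolase TKT. Both KD libraries lay below both controls for RPIA, PGD and RPE and above them for TKT.

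At the entry to the mitochondria, 1 of 3 pyruvate dehydrogenase subunit genes fell (33.3%, beside 12.5% of all genes). DLAT, the acetyltransferase core of the complex, had scaled counts of 4184 and 4160.3 in the control libraries and 2878 and 2577 in the KD libraries (log2 fold change -0.61 ± 0.10 (SE), adjusted p = 0.00389). PDHA1, the catalytic E1 alpha subunit that the kinases phosphorylate, gave 5726 and 5575 in the control libraries and 4379 and 3449 in the KD libraries (log2 fold change -0.53, -0.84 to -0.22 (95% interval), adjusted p = 0.0154). PDHB, its E1 beta partner, had a log2 fold change of 0.05, with overlapping libraries. Thus DLAT and PDHA1 were below control in both KD libraries, and DLAT alone passed the quasi-likelihood test. PDHA1 was called lower by DESeq2 (adjusted p = 0.00113) and exactTest (0.00121). The adjusted p of DLAT was 0.0170 without shCtrl replicate 1 and 0.0157 without shCtrl replicate 2, and that of PDHA1 was 0.00195 without shYEATS2 replicate 1.

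The pyruvate dehydrogenase kinases switch the complex off. PDK3 had the largest fall of any member, with scaled counts of 175 and 203 in the control libraries and 66.8 and 49.5 in the KD libraries (log2 fold change -1.70 ± 0.24 (SE), adjusted p = 0.00247). It was also among the least abundant, with 68 and 56 reads in the KD libraries before scaling. The call was kept under all 14 other fits, with a log2 fold change of -1.93 to -1.50 when any library was left out. PDK1, the hypoxia-inducible kinase, had a log2 fold change of -0.48 (adjusted p = 0.0174), and PDK2 had -0.22 (adjusted p = 0.137). Both lay below control in both KD libraries. Neither was called by the quasi-likelihood test or DESeq2, while exactTest called PDK1 lower (adjusted p = 0.00429). Reads of PDK3 per read of PDK2 were 0.143 and 0.144 in the control libraries and 0.0592 and 0.0439 in the KD libraries.

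In the TCA cycle, 2 of 7 genes fell (28.6%, beside 12.5% of all genes), and 0 were higher even at an unadjusted p under 0.05. In 6 of 7, both KD libraries lay below both controls (85.7%, beside 39.8% of all genes). FH, the fumarate hydratase, had scaled counts of 3039 and 3177 in the control libraries and 1839 and 1532 in the KD libraries (log2 fold change -0.88 ± 0.12 (SE), adjusted p = 0.00207). This was 0.542 times the control level, and the call was kept under all 14 other fits. SUCLG1, the shared alpha subunit of succinyl-CoA ligase, had 3586 and 3790.4 in the control libraries and 2528 and 2413 in the KD libraries (log2 fold change -0.58 ± 0.09 (SE), adjusted p = 0.00401). Without shCtrl replicate 1 the adjusted p of SUCLG1 was 0.0140, and without shCtrl replicate 2 it was 0.0244. SUCLA2, the ATP-forming beta subunit, had a log2 fold change of -0.40 (adjusted p = 0.0171) and was called lower by exactTest (adjusted p = 0.00468).

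The entry and control points of the cycle were not called. CS, the citrate synthase, gave 17203 and 16613 in the control libraries and 14307 and 13421 in the KD libraries (log2 fold change -0.29, -0.51 to -0.07 (95% interval), adjusted p = 0.0408). IDH3A, the catalytic subunit of NAD-dependent isocitrate dehydrogenase, gave 1499.9 and 1367 in the control libraries and 1175 and 1066 in the KD libraries (log2 fold change -0.36, -0.61 to -0.10 (95% interval), adjusted p = 0.0338). Both were below control in both KD libraries. OGDH, the E1 subunit of the 2-oxoglutarate dehydrogenase complex, gave 8183 and 7593 in the control libraries and 8339 and 7367 in the KD libraries (log2 fold change -0.01, -0.26 to 0.24 (95% interval), adjusted p = 0.965), and its libraries overlapped. MDH2, the mitochondrial malate dehydrogenase, had a log2 fold change of -0.26.

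Among the enzymes that lead into or out of the cycle, ME1 rose, and 0 of 6 genes were lower even at an unadjusted p under 0.05. ME1, the cytosolic malic enzyme and a source of NADPH, had scaled counts of 699 and 618 in the control libraries and 1100.5 and 1287 in the KD libraries (log2 fold change 0.86 ± 0.13 (SE), adjusted p = 0.00310), a level 1.81 times the control. The adjusted p was 0.0131 without shCtrl replicate 2. ME1 is shown with its promoter window (GRCh38.p14, as above) because it had the largest rise of any member. Capitals mark TGACNNNGC, the core of the antioxidant response element, on either strand.
ME1, chr6:83431002-83431301, - strand: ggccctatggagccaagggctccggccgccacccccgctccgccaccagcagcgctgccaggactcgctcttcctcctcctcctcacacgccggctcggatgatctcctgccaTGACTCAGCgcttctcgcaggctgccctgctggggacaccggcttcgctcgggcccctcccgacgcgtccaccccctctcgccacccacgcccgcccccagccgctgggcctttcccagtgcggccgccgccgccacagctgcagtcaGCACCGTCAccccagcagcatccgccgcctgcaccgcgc
This core was found 2 times in the ME1 window, in 13.3% of all 35116 windows and in 13.7% of the 73 windows of members. The mitochondrial malic enzyme ME2 had a log2 fold change of -0.04, and reads of ME2 per read of ME1 were 5.02 and 5.52 in the control libraries and 3.22 and 2.49 in the KD libraries. PFKFB2, the other gene that rose, was not in the promoter table used here.

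The remaining side-branch genes were not called by the quasi-likelihood test, and DESeq2 called IDH1 higher (adjusted p = 0.00615). So did the fit with the replicate number as a block (adjusted p = 0.000453). IDH1, the cytosolic NADP-dependent isocitrate dehydrogenase, had a log2 fold change of 0.64 (adjusted p = 0.0518). Its scaled counts were 1938 and 2831 in the control libraries and 3054 and 4351 in the KD libraries. The groups did not overlap, but the controls differed from each other by more than control replicate 2 differed from KD replicate 1. The log2 fold changes were -0.19 for the mitochondrial IDH2, -0.09 for the cytosolic malate dehydrogenase MDH1 and 0.25 for pyruvate carboxylase PC, each with overlapping libraries. Reads of IDH2 per read of IDH1 were 0.205 and 0.193 in the control libraries and 0.118 and 0.108 in the KD libraries.

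**Figure D3:**
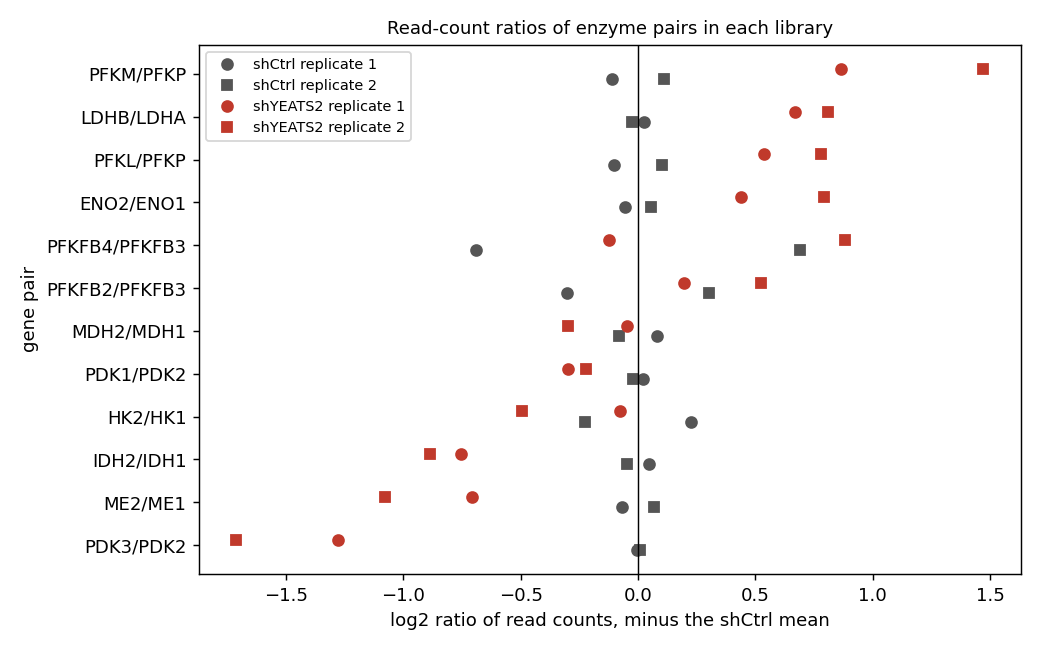
Log2 ratio of the read counts of 2 related genes in each library, minus the mean of the control libraries, for the 12 pairs in which both genes were listed (grey shCtrl, red shYEATS2, circles replicate 1, squares replicate 2). The KD libraries lie above both controls in 4 pairs, below both in 4 and among them in 4, with PFKM/PFKP at the top and PDK3/PDK2 at the bottom.

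Ratios of related enzymes within a library do not depend on library scaling. Of 13 pairs fixed, 12 could be computed, since ALDOC was not listed. The KD libraries lay above both controls for PFKM/PFKP, PFKL/PFKP, LDHB/LDHA and ENO2/ENO1, and below both for PDK3/PDK2, ME2/ME1, IDH2/IDH1 and PDK1/PDK2. The mean log2 ratio changed by 1.17 for PFKM/PFKP, 0.74 for LDHB/LDHA, -0.89 for ME2/ME1 and -0.82 for IDH2/IDH1. The smallest two-sided p that an exact permutation of 2 against 2 libraries allows is 0.333, so these ratios are given without a test. They show unequal change of the 2 genes, in reads and not in molecules. Shares over all gene pairs were not computed. Of all single genes, 39.8% lay below both controls in both KD libraries and 39.7% above.

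Per unit of length, the members spanned more than 3 orders of magnitude. Levels are given as RPKM, reads per kilobase of the canonical GENCODE transcript relative to the TMM-scaled library size, in control replicates 1 and 2. GAPDH was the most abundant at 5473 and 5854, followed by ENO1 at 1975 and 2074. LDHA stood at 361 and 405, FH at 46.6 and 48.7 and PDK3 at 2.77 and 3.20. PDK1, at 1.30 and 1.44 on a transcript of 14072 bases, had the lowest control mean, although PFKFB4 was lower in control replicate 1, at 1.14. The genes called lower thus came from the top, the middle and the bottom of this order, and both genes called higher, ME1 and PFKFB2, from its lower end. Processed copies of several of these genes exist in the genome, and 2 such copies, LDHAP4 and TPI1P1, had rows of their own, with at most 232 reads in a library. How many reads were lost to copies during counting was not tested.

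**Figure D4:**
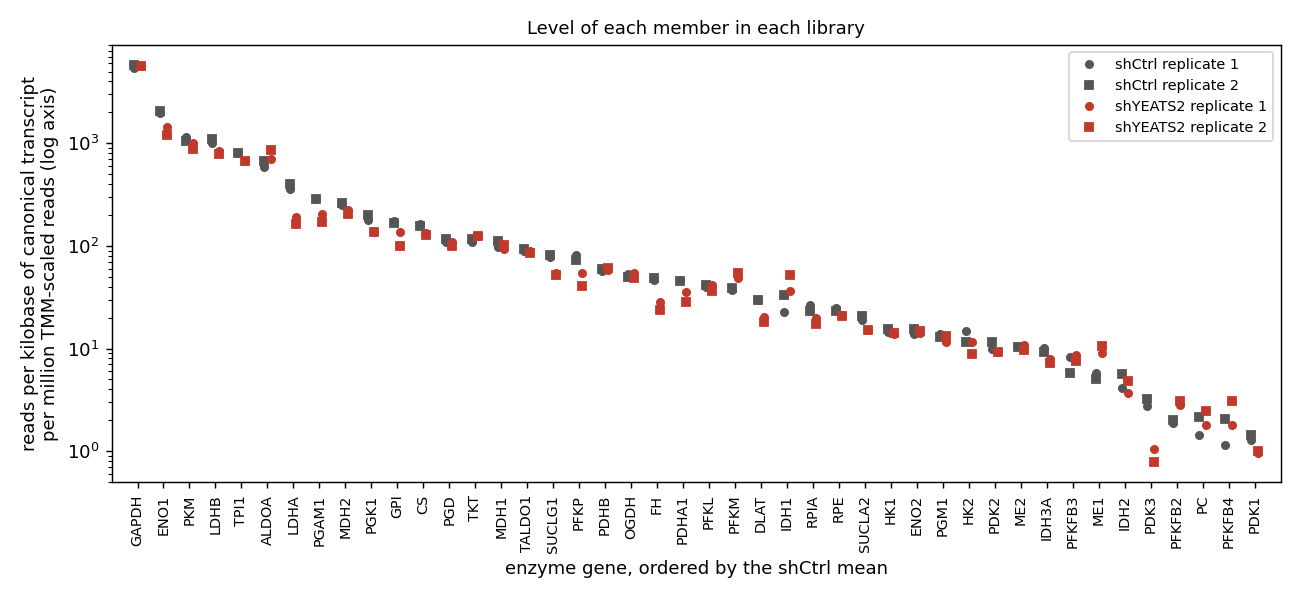
Level of the 44 enzyme genes in each library, as reads per kilobase of canonical transcript relative to the TMM-scaled library size (RPKM, log axis), ordered by the control mean (grey shCtrl, red shYEATS2, circles replicate 1, squares replicate 2). GAPDH has the highest control mean and PDK1 the lowest, and the drop of LDHA and PDK3 is seen as the red symbols well below the grey ones.

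As a share of all counted reads, the 44 genes together took 2.21% and 2.33% in the control libraries and 2.16% and 2.08% in the KD libraries. The lactate dehydrogenase genes took 0.203% and 0.225% in the control libraries and 0.159% and 0.145% in the KD libraries. The lower glycolysis genes took 1.39% and 1.46% in the control libraries and 1.37% and 1.31% in the KD libraries, and the upper ones took 0.318% and 0.333% in the control libraries and 0.328% and 0.337% in the KD libraries. The TCA cycle genes took 0.143% and 0.145% in the control libraries and 0.134% and 0.124% in the KD libraries. The KD libraries thus lay below both controls for the lactate dehydrogenase, lower glycolysis and TCA cycle groups, and between or above them for upper glycolysis. They also lay below both for the pyruvate dehydrogenase subunits and kinases. They lay above both for the pentose phosphate genes (0.0770% and 0.0814% in control, 0.0863% and 0.0836% in KD libraries). The same held for the fructose 2,6-bisphosphate enzymes and for the enzymes that lead into or out of the cycle. The share of PGM1 overlapped. The 95% Wilson intervals of these shares reach at most 0.00502 percentage points to either side and cover counting error only.

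Of 60 further genes of the same pathways, 37 were listed and 3 were called by the quasi-likelihood test, 2 lower and 1 higher. DESeq2 called 5 lower and 2 higher, exactTest 6 and 3, and the fit with the replicate number as a block 7 and 4. Over all 12676 genes, DESeq2 called 2190 lower and 2159 higher, exactTest 2497 and 2596, and the block 2715 and 2742. SDHD, a membrane anchor of succinate dehydrogenase, had scaled counts of 4083 and 4334 in the control libraries and 2938 and 2651 in the KD libraries (log2 fold change -0.59 ± 0.10 (SE), adjusted p = 0.00456). PRPS2, which makes phosphoribosyl pyrophosphate from ribose 5-phosphate, had 3788 and 3516 in the control libraries and 2126 and 1370.4 in the KD libraries (log2 fold change -1.06 ± 0.20 (SE), adjusted p = 0.00594). SDHD and PRPS2 thus fell, while H6PD, the hexose 6-phosphate dehydrogenase of the endoplasmic reticulum, rose.

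H6PD had scaled counts of 1089 and 1236 in the control libraries and 1793 and 1821 in the KD libraries (log2 fold change 0.64 ± 0.10 (SE), adjusted p = 0.00408). Its adjusted p was 0.0308 without shCtrl replicate 1. That of SDHD was 0.0143 without shCtrl replicate 1, 0.0256 without shCtrl replicate 2 and 0.0114 without shYEATS2 replicate 2. The share called lower in this list was 5.41% and the share called higher 2.70%, both below those of all genes (12.5% and 12.9%). PCK2, the mitochondrial phosphoenolpyruvate carboxykinase, had the largest positive log2 fold change of the list, 1.01 ± 0.22 (SE), and is named after its values were seen. Its adjusted p was 0.0102 in the quasi-likelihood test, 1.1e-05 with DESeq2 and 6.9e-05 with exactTest. The median log2 fold change was -0.14, beside -0.21 for the members.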

How the data were processed

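RNA of H1299 cells was sequenced in 2 shCtrl and 2 shYEATS2 libraries. ChIP-seq samples were not analysed here. The authors mapped reads to hg19 (GRCh37) with the RNA-Seq unified mapper, whereas the submitters' processing notes name TopHat2 2.0.10, and the deposited values are raw read counts per gene from HTSeq (0.6.1p1 in those notes). HTSeq was run with its default parameters, on libraries of a TruSeq RNA kit that does not mark strand, so reads of antisense partners cannot be told apart. The gene annotation is not given in the sources used here. The table lists only genes that reached at least 101 reads in a library. Columns deposited beside the counts hold the authors' own log2 fold changes, p-values and FDR, and were not used.

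Members were matched by symbol. Members and lists were chosen with earlier results of these data known, so no result here is independent of them. A gene needed 10 reads or more in 2 or more libraries, which all 12676 met. Genes were tested with edgeR 4.0.16 in R 4.3.3 (TMM, glmQLFit, glmQLFTest, no replicate block) and adjusted by Benjamini-Hochberg, and called at an FDR under 0.01. On counts simulated with a dispersion of 0.01 for every gene, 196 of 200 genes changed by 1 log2 unit were recovered, with 0 false calls among 12676 genes. Of the called members, only LDHA and PDK3 changed by that much. The simulation thus checks the code and does not measure recovery or false calls in these data. The libraries are described as biological replicates. The p-values rest on the spread between these 2 a group, with each gene's variance drawn towards the trend over all genes. The biological coefficient of variation was 0.107. Alternative tests were DESeq2 1.42.0, exactTest, and limma-trend of limma 3.58.1 on log2 values with a pseudocount of 1 or 0.1. The study names exactTest too, which was run here with TMM, while the study's scaling is not given in the sources used here. Other scalings were DESeq2 size factors, total counts and upper quartile. Other filters were none, or a mean count of 100 and over. Further alternatives were the replicate number as a block, other thresholds (FDR under 0.05, or 1.5-fold and over) and leaving out each library. Full values are given for YEATS2, called members, HK1, HK2, PFKL, PFKM, PFKP, PKM, LDHA, PDHA1, CS, IDH3A and OGDH, and the member of smallest p in role groups without a call. 1 further pathway gene is not reported here. For further lists, called genes are named, at most 5 in each direction (3 for hypoxia-inducible genes). Positions and transcript lengths are from GENCODE v44 on GRCh37, which matched 98.3% of the identifiers. Promoter windows are from RefSeq on GRCh38.p14 and were found for 43 of the 45 symbols.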

Additional observations from a re-analysis of the deposited data

How the results depend on the processing

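LDHA, PDK3 and FH, 3 of the 10 called members, were called under all 14 other fits. The number called lower, 8, was 15 with exactTest, 16 with the replicate block, 17 at an FDR under 0.05 and 5 with total counts. The number called higher, 2, was 4 with DESeq2 and 6 with the replicate block. The other settings gave counts within 1.5 times those. With 1 library left out, which assumes that the lone library varies like the other group, 3 to 10 members were called lower and 0 to 3 higher, the latter 0 without shCtrl replicate 2, where 5 members were higher at an unadjusted p under 0.05. The median log2 fold change of members, -0.21, was -0.085 with total counts and -0.22 to -0.19 with 1 library left out. That of YEATS2 was -2.74 to -2.62 with 1 library left out. The labels number the replicates 1 and 2 in both groups, and the deviations of same-numbered libraries correlated at 0.403, but with 2 pairs and no stated shared batch the numbers were not taken as a pairing. Over all genes the block raised the calls from 1581 to 2715 lower and from 1630 to 2742 higher. ExactTest gave 2497 and 2596, and DESeq2 2190 and 2159. Among the members, the block added HK2, GPI, PFKP, LDHB, RPIA, PDHA1, PDK1 and SUCLA2 to those called lower. It added PFKM, ALDOA, PFKFB4 and IDH1 to those called higher. The study reported fewer genes lower and more higher than exactTest gave here.

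Log2 fold changes near 0 reversed their sign for 12 members, none of them called: with total counts as library sizes, HK1 (0.036), PFKL (0.062), ENO2 (0.11), PGM1 (0.0059), TALDO1 (0.054), OGDH (0.11), MDH1 (0.025) and ME2 (0.083). With upper quartile scaling, ENO2 (0.0073) and OGDH (0.013). With a mean count of at least 100, ENO2 (0.0026) and OGDH (0.0061). With 1 library left out, the range spanned 0 for PFKL (-0.16 to 0.037), GAPDH (-0.050 to 0.052), ENO2 (-0.10 to 0.083), PFKFB3 (-0.020 to 0.49), OGDH (-0.10 to 0.081), IDH2 (-0.40 to 0.061), MDH1 (-0.20 to 0.018), PC (-0.025 to 0.57) and ME2 (-0.11 to 0.036). Depth does not limit the abundant enzymes, whereas PDK3, PFKFB4 and PC rest on the fewest reads, and 2 libraries a group limit all calls.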

Other observations

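Genes known to be induced by hypoxia that are no enzymes of these pathways, and HIF1A, were examined beside them. LDHA, PGK1, PDK1 and PFKFB3 are hypoxia-inducible too. Of 17 such genes, 13 were listed, and 2 were called higher and 2 lower by the quasi-likelihood test. This is 15.4% in each direction, beside 12.9% higher and 12.5% lower among all genes. With exactTest 4 were higher and 3 lower, and with the replicate number as a block 5 and 3. Over all 12676 genes, exactTest called 2596 higher and 2497 lower, and the block 2742 and 2715. VEGFA, the vascular growth factor, had scaled counts of 1247 and 1677 in the control libraries and 2945 and 3298 in the KD libraries (log2 fold change 1.09 ± 0.15 (SE), adjusted p = 0.00249). KDM3A, a histone H3K9 demethylase, had 2934 and 2389 in the control libraries and 4979.7 and 5562 in the KD libraries (log2 fold change 0.99 ± 0.13 (SE), adjusted p = 0.00199). ERO1L, the oxidase of disulfide formation, had 2950.3 and 2862 in the control libraries and 1245 and 1014 in the KD libraries (log2 fold change -1.36 ± 0.12 (SE), adjusted p = 0.00100), and P4HA2, a collagen prolyl hydroxylase, had 666 and 771 in the control libraries and 423 and 420.0 in the KD libraries (log2 fold change -0.77 ± 0.13 (SE), adjusted p = 0.00416). The called genes of this list thus went in both directions, and its median log2 fold change was 0.23, beside -0.21 for the enzymes. HIF1A belongs to this list, and its log2 fold change of 0.23 (adjusted p = 0.0893) is the median just given. It is named here after its value was seen. In 7 of the 13 listed genes both KD libraries lay above both controls (53.8%, beside 39.7% of all genes). In 3 both lay below (23.1%, beside 39.8%). The adjusted p of P4HA2 was 0.0243 without shCtrl replicate 2 and 0.0115 without shYEATS2 replicate 2.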
